A study of Mus musculus with 1073 samples.

Results

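The genes described here encode granule proteins of granulocytes and monocytes, or, for 1 of them, a membrane protein of their progenitors. The list was *Mpo*, *Prtn3*, *Elane*, *Ctsg*, *Lyz2* and *Ms4a3*. A gene was kept if it was present in the filtered count and CPM tables of single yolk sac cells. This left 5 of the 6 listed genes, among 15967 genes in all. *Ctsg* was the exception, with 0 counts in all 1073 captured cells.

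The cells came from mouse yolk sacs between E7.25 and E10.5 and were sorted, captured singly on a Fluidigm C1 circuit and sequenced as full-length cDNA. Haematopoietic progenitor/colony forming cells (HPC) were taken at E8.25 (73 cells) and E8.5 (89 cells) as TER119- CDH5+ CD41+, and at E9.5 (46 cells) and E10.5 (87 cells) as TER119- CDH5- CD45+ CD41low. The labels name all 4 HPC groups erythro-myeloid progenitors. Stages are those of the labels, but the cell names in the deposited tables call the E8.25 HPC "E8.5 PreHPC" and the E7.25 mesoderm "E7.5 Flk1". Macrophages (Mac, 25 cells, E10.5) were TER119- CDH5- CD41- CD45+. Megakaryocytes (Mk) were TER119- CDH5- CD41+ at E8.5 (37 cells) and TER119- CDH5- CD45- CD41high at E10.5 (73 cells). Primitive erythrocytes (EryP) were TER119+ at E8.5 (66 cells) and E10.5 (3 cells). Endothelium (Endo) was TER119- CD41- CDH5+ at E8.5 (79 cells) and TER119- CD45- CD41- CDH5+ at E10.5 (61 cells). These embryos were untreated C57BL/6. The mesoderm was Flk1-GFP+ cells of untreated Flk1-GFP/+ embryos at E7.25 (73 and 74 cells in its 2 lanes) and E7.75 (53 and 87 cells), in which GFP reports the *Flk1* locus. Trypsin was used up to E7.75 and collagenase/dispase from E8.25.

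In all, 926 of 1073 captured cells were in the filtered table, with 483830 to 5943204 counts per cell and a median of 1887347.5. Each population was sequenced in 1 lane, except the E7.25 and E7.75 mesoderm with 2 lanes each, and the labels name no replicate embryos or captures. No test was therefore made: intervals of shares below are exact (Clopper-Pearson) 95% intervals that cover counting error only. Intervals of summed or pooled counts treat reads as independent and do not cover the spread between cells. Reads were not collapsed by molecular identifiers. HPC of E8.25 and E8.5 shared one flow cell and one gate, and HPC of E9.5 and E10.5 shared the other flow cell and gate. Between E8.5 and E9.5, stage, gate and flow cell cannot be told apart. The E10.5 Mac and EryP shared a sequencing lane and a joint library name, and all 96 index pairs were used in more than 1 lane.

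Granule proteins are made early in granulocyte differentiation, at the promyelocyte stage, and are packed into primary (azurophilic) granules before the later secondary and tertiary granules form. In the yolk sac, erythro-myeloid progenitors are the source of the first granulocytes and of tissue macrophages. *Mpo* encodes myeloperoxidase, which makes hypochlorous acid from hydrogen peroxide and chloride. *Prtn3*, *Elane* and *Ctsg* encode the serine proteases proteinase 3, neutrophil elastase and cathepsin G. *Lyz2* encodes the lysozyme of myeloid cells, which cuts bacterial cell walls and is made by macrophages as well as granulocytes. *Ms4a3* encodes a membrane-spanning protein of granulocyte-monocyte progenitors and is used to trace their descendants.

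The genes lie on 4 chromosomes (build GRCm38, GENCODE M21). *Mpo* is at chr11:87793581-87804413 on the plus strand. *Prtn3* (chr10:79874476-79883174) and *Elane* (chr10:79886247-79888215) are neighbours on the plus strand. *Ctsg* is at chr14:56099881-56102574, *Lyz2* at chr10:117277331-117282321 and *Ms4a3* at chr19:11629496-11640851, all on the minus strand. The long form of *Prtn3* begins in an exon that overlaps *Plppr3* on the other strand, and the library kit did not mark strand, so reads there cannot be assigned to one of them. *Lyz2* lies beside its close copy *Lyz1* (chr10:117287797-117292868), with which reads may be shared. Over all captured cells *Lyz1* had 767 counts, against 112915 for *Lyz2*.

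The bases before each start site are shown so that motifs of the myeloid factors measured in the same cells can be read in them. They are taken from the RefSeq promoter table (GRCm38.p6), 5′ to 3′ on the strand of the gene, from up to 250 bases before the RefSeq start site, leaving out bases in annotated exons. In *Lyz2* the last 2 bases lie in an exon and complete a motif. Capitals mark GAGGAA, the core bound by PU.1, or TTNNGNAA, a core bound by C/EBP factors.
Mpo (chr11:87793534-87793580, plus strand): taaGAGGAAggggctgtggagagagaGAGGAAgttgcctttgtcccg
Prtn3 (chr10:79879417-79879613, plus strand): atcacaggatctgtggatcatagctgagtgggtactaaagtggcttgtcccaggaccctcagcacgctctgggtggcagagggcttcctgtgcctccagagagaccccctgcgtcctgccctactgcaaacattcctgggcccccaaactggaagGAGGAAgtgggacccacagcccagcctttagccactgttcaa
Elane (chr10:79886062-79886246, plus strand): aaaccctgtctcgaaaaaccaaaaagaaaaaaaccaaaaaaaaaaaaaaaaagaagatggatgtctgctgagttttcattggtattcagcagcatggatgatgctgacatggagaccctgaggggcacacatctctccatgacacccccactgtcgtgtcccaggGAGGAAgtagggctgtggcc
Ctsg (chr14:56102575-56102824, minus strand): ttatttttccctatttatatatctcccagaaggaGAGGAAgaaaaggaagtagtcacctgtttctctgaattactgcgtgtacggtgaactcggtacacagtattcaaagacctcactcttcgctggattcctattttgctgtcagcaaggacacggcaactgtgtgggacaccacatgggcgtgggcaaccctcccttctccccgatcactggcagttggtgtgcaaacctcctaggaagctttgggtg
Lyz2 (chr10:117282320-117282522, minus strand): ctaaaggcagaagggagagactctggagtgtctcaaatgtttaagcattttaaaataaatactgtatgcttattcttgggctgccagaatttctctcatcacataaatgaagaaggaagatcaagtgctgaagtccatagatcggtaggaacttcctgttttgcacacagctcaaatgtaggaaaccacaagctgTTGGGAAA
Ms4a3 (chr19:11640852-11641101, minus strand): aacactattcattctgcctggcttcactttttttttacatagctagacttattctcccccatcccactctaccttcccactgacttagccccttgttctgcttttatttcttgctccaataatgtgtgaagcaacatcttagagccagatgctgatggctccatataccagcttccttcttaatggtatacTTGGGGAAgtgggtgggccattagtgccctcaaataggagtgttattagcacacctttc

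The 250 bases before the start sites were searched on both strands for GAGGAA, for TTNNGNAA and for AACNG, a core bound by MYB. The PU.1 core was found 2 times before *Mpo* and 1 time each before *Prtn3*, *Elane* and *Ctsg*, all on the strand of the gene. It was in neither *Lyz2* nor *Ms4a3*. The C/EBP core was found 1 time each before *Lyz2* and *Ms4a3* and in none of the other 4. Over 32851 promoters of the same length, 23.3% held the PU.1 core, 36.8% the C/EBP core and 74.2% the MYB core. The MYB core was before 5 of the 6 genes, *Ms4a3* being without it. A longer form, GAGGAAGT, which contains GAGGAA and was chosen after the sequences had been seen, was before *Mpo*, *Prtn3* and *Elane*, and 2.44% of all promoters held it. These matches are descriptions of letters and do not show binding.

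*Mpo* was found in more cells at each later HPC stage. It was detected in 12 of 73 E8.25 HPC (16.4%, 8.79 to 27.0%), 38 of 89 E8.5 HPC (42.7%, 32.3 to 53.6%), 43 of 46 E9.5 HPC (93.5%, 82.1 to 98.6%) and 87 of 87 E10.5 HPC (100%, 95.8 to 100%). The intervals of E8.25, E8.5 and E9.5 did not overlap one another, while those of E9.5 and E10.5 did. Endothelium is given for comparison, not as a measured background: 5.06% of E8.5 Endo (4 of 79, 2 of them with 10 counts or more) and 1.64% of E10.5 Endo (1 of 61, with 1 count) held *Mpo*. Median depth was 1966444 counts in E8.25 HPC, 1555237 in E8.5 HPC and 1874645 in E8.5 Endo, and 3082737.5 in E9.5 HPC, 1609583 in E10.5 HPC and 1943904 in E10.5 Endo. When each cell was thinned to 840000 counts, the *Mpo* shares were 12.5%, 38.2%, 86.7% and 98.6%, against 15.3%, 42.7%, 93.3% and 100% in the same cells before thinning (72, 89, 45 and 71 cells).

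The levels spread widely within a stage. CPM here is the deposited value after scaling by scran size factors, and a mean is over all cells of a group. In E8.25 HPC, *Mpo* ran from 0 to 121.4 CPM (median 0, mean 5.43). In E8.5 HPC it ran from 0 to 184 CPM (median 0, mean 15.1). At E9.5 the lowest cell was at 0, the median at 150.5 and the highest at 2878 CPM (mean 295). The E10.5 HPC ran from 1.44 through a median of 483 to 8419.6 CPM (mean 1202). The stages overlapped: 31 of 89 E8.5 HPC were at or above the lowest E10.5 HPC, but none reached the E10.5 median, and 5 of 46 E9.5 HPC did.

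**Figure D1:**
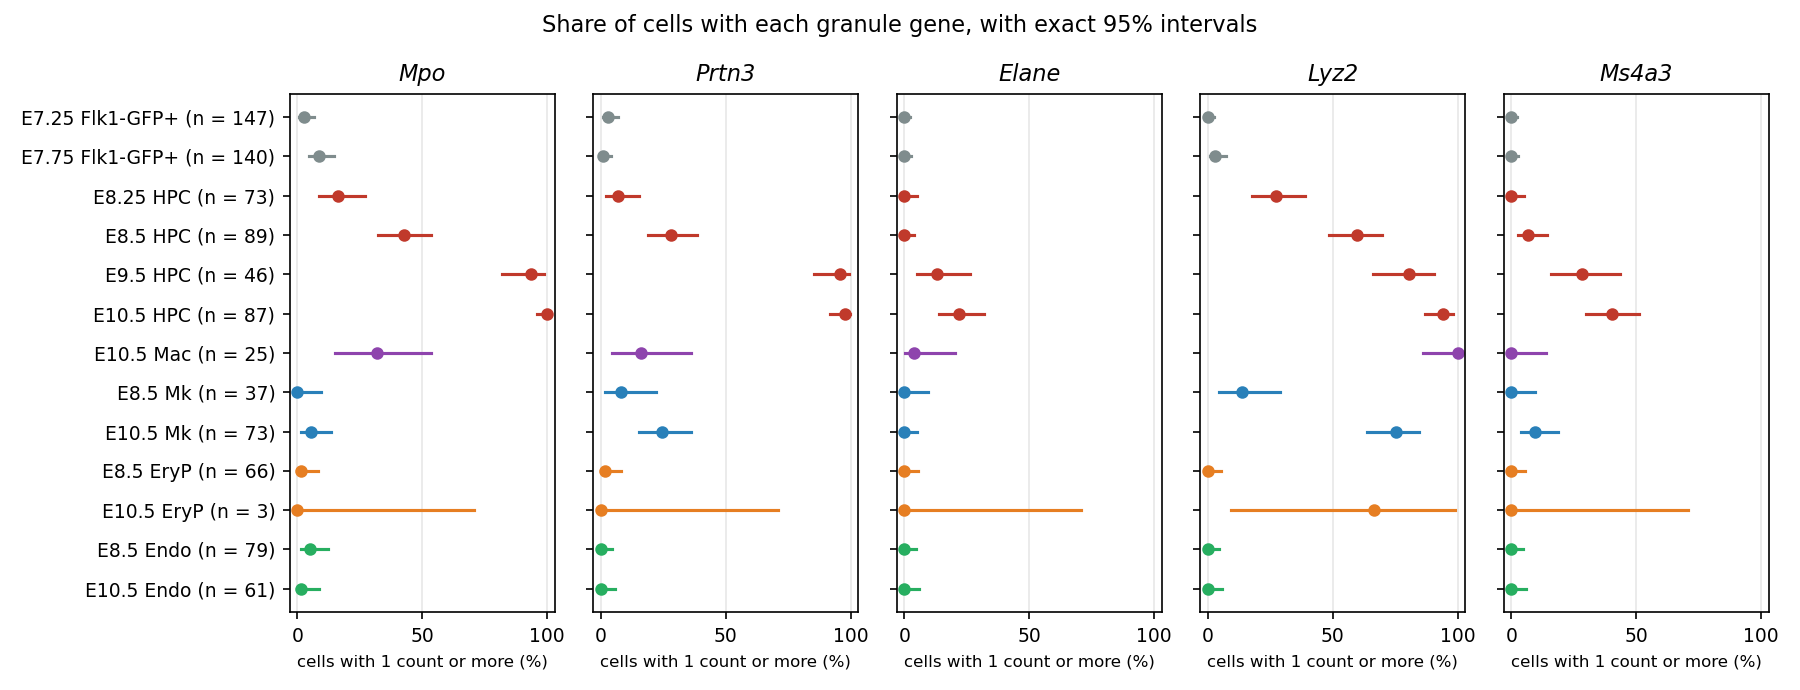
Percent of cells in which each granule gene had a count (horizontal axis) in the 13 sorted populations, whose numbers of cells stand beside their names; points are shares and bars exact 95% intervals for counting error. *Mpo* and *Prtn3* reach 93.5% or more in E9.5 and E10.5 HPC, whereas *Lyz2* is also at 100% in Mac and 75.3% in E10.5 Mk.

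*Prtn3* followed *Mpo* in its share of cells, but from E9.5 to E10.5 its level rose less than that of *Mpo*. It was found in 5 of 73 E8.25 HPC (6.85%, 2.26 to 15.3%), 25 of 89 E8.5 HPC (28.1%, 19.1 to 38.6%), 44 of 46 E9.5 HPC (95.7%, 85.2 to 99.5%) and 85 of 87 E10.5 HPC (97.7%, 91.9 to 99.7%). None of the 79 E8.5 Endo or 61 E10.5 Endo held it, which allows shares of up to 3.80% and 4.92%. Its highest E8.25 HPC had 18.1 CPM (mean 0.52) and its highest E8.5 HPC 89.7 CPM (mean 4.28). The E9.5 HPC ran from 0 to 976 CPM (median 64.9, mean 143.6) and the E10.5 HPC from 0 to 875 CPM (median 92.0, mean 165). The E9.5 and E10.5 ranges almost coincided.

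*Elane* was the latest and the rarest of the detected proteases. No E8.25 or E8.5 HPC held a count, which allows shares of up to 4.11% and 3.37%. It was found in 6 of 46 E9.5 HPC (13.0%, 4.94 to 26.3%) and in 19 of 87 E10.5 HPC (21.8%, 13.7 to 32.0%), and these intervals overlap. Outside these groups, 1 Mac held 1 count and no other population held any. At E10.5 the level ran from 0 to 218 CPM (median 0, mean 6.66), and the highest cell alone held 37.6% of the sum. Of its 19 cells, 14 held 10 counts or more.

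*Ctsg*, the remaining protease, was not detected in any HPC. With 0 of 46 cells at E9.5 and 0 of 87 at E10.5, shares of up to 6.52% and 3.45% are allowed. The 3 protease genes thus stood at 97.7%, 21.8% and 0% of E10.5 HPC.

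*Lyz2* was in more E8.25 and E8.5 HPC than any other gene of the 5, and was also frequent in Mac and E10.5 Mk. It was in 20 of 73 E8.25 HPC (27.4%, 17.6 to 39.1%), 53 of 89 E8.5 HPC (59.6%, 48.6 to 69.8%), 37 of 46 E9.5 HPC (80.4%, 66.1 to 90.6%) and 82 of 87 E10.5 HPC (94.3%, 87.1 to 98.1%). No E8.5 Endo, E10.5 Endo or E8.5 EryP held it. The lowest cell of each HPC stage was at 0. The highest E8.25 HPC had 127.2 CPM (mean 12.4) and the highest E8.5 HPC 235 (median 3.08, mean 28.3). The E9.5 HPC reached 375 CPM (median 38.0, mean 70.5) and the E10.5 HPC 2877 (median 85.0, mean 185). At E8.25 and E8.5 its share was above that of *Mpo*, but the 95% intervals of the pair overlapped at both stages.

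*Ms4a3* was detected at low levels. It was in 0 of 73 E8.25 HPC, which allows up to 4.11%, then in 6 of 89 E8.5 HPC (6.74%, 2.51 to 14.1%), 13 of 46 E9.5 HPC (28.3%, 16.0 to 43.5%) and 35 of 87 E10.5 HPC (40.2%, 29.9 to 51.3%). The E8.5 HPC had a mean of 0.53 CPM (highest 13.4), the E9.5 HPC 5.83 (highest 168) and the E10.5 HPC 9.71 (highest 139.7). Most cells of every stage were at 0. One cell held 62.6% of the E9.5 sum.

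**Figure D2:**
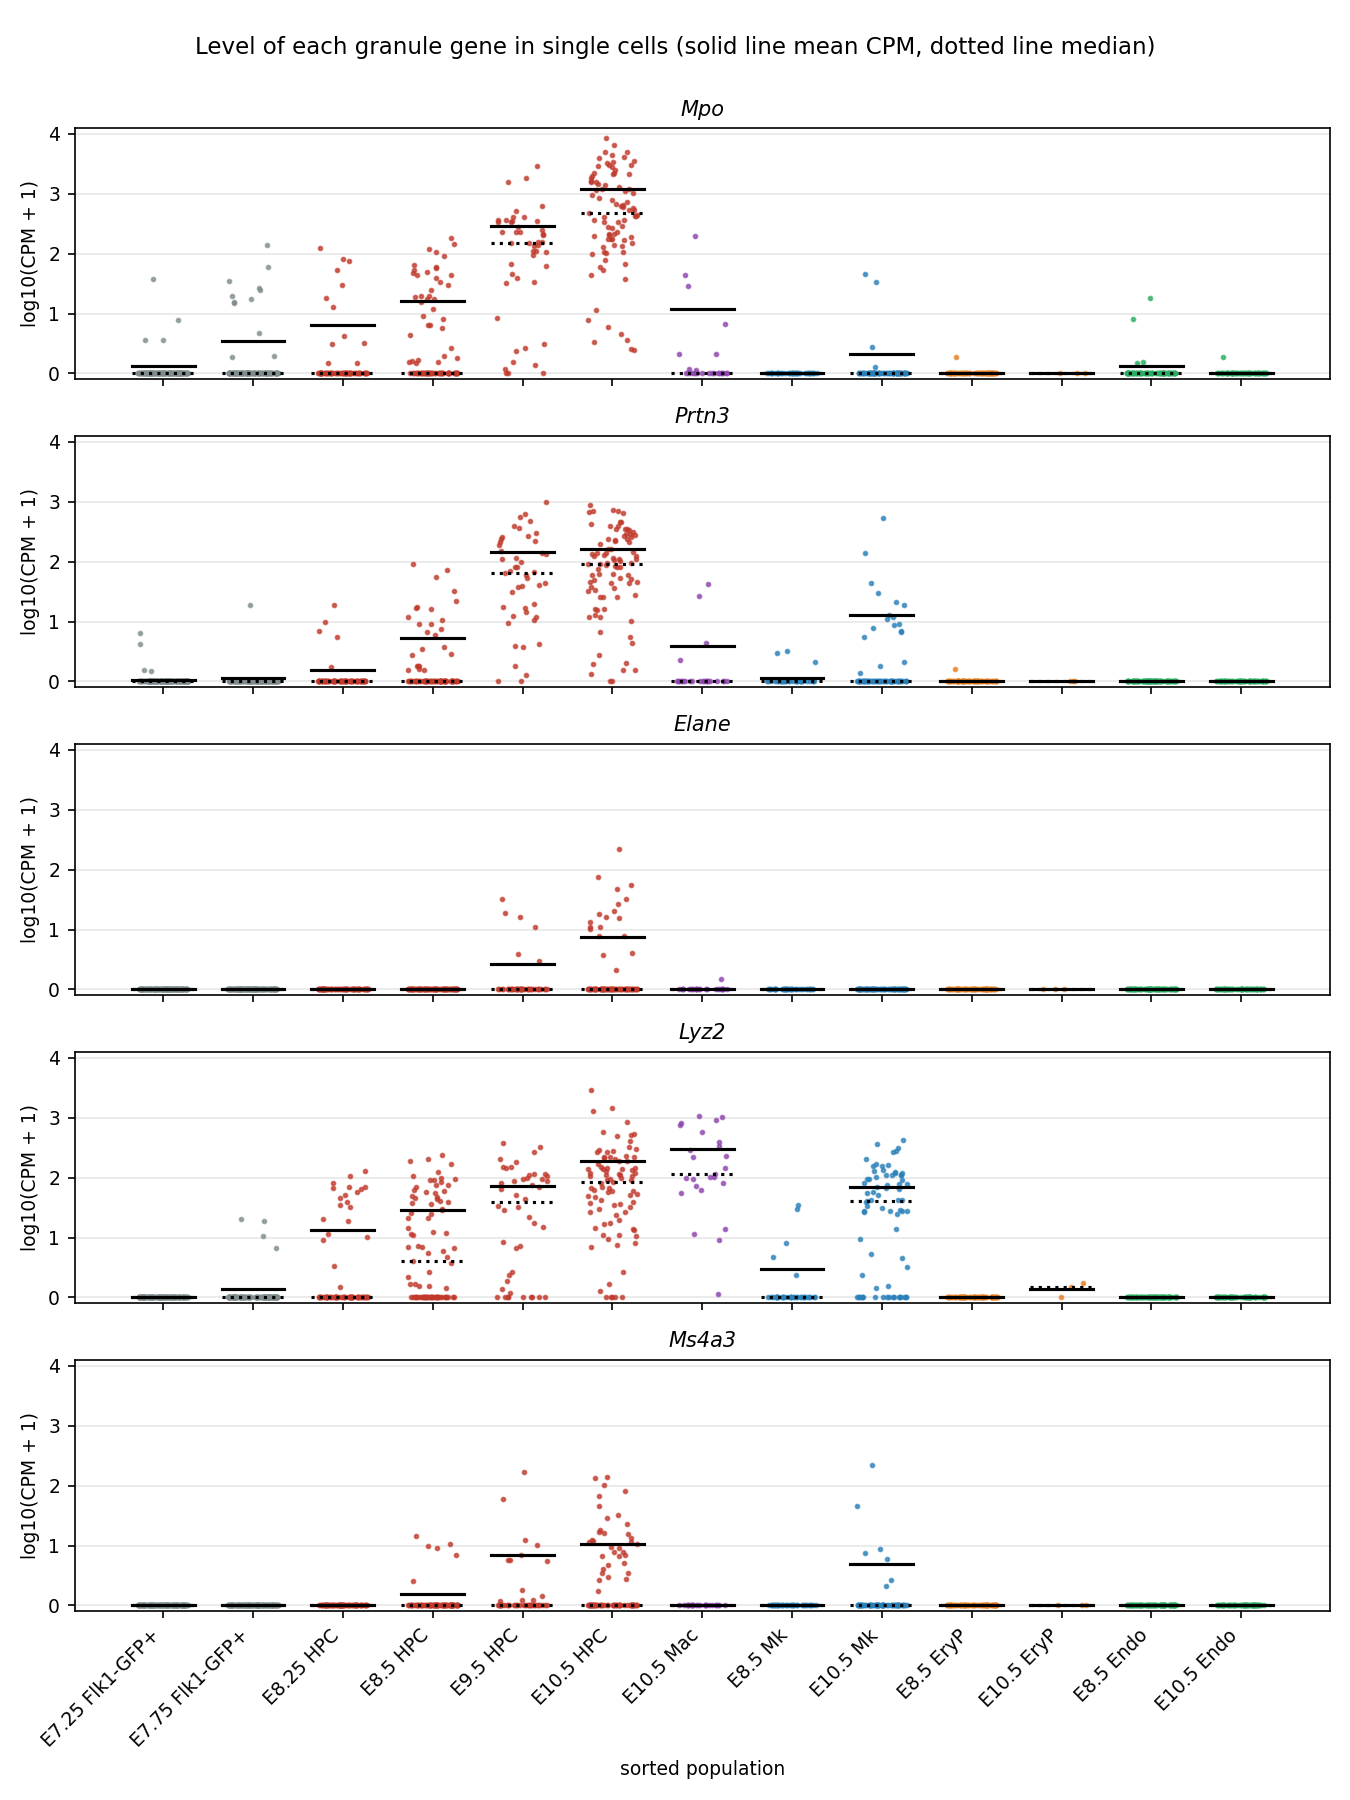
Level of each granule gene in every cell, as log10(CPM + 1) on the vertical axis, by sorted population; each point is a cell, solid lines are mean CPM and dotted lines medians. *Mpo* reaches 8419.6 CPM in E10.5 HPC, while *Elane* and *Ms4a3* stay at 0 in most cells of every population.

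Levels of different genes can be compared only per length. Per kilobase of exon sequence, mean E10.5 HPC levels were 351 CPM for *Mpo*, 140.9 for *Lyz2*, 95.3 for *Prtn3*, 6.76 for *Elane* and 5.15 for *Ms4a3*. At E9.5, *Mpo* and *Prtn3* were nearly level, at 86.1 and 82.9 CPM per kilobase. At E8.5 *Lyz2* led with 21.5, before *Mpo* at 4.40 and *Prtn3* at 2.47. Counted cell by cell, *Mpo* exceeded *Prtn3* per kilobase in 7 of the 16 E8.5 HPC with both, in 25 of 42 at E9.5 and in 73 of 85 at E10.5. The median E10.5 HPC with both had 3.22-fold more *Mpo* than *Prtn3* per kilobase (1.69 on the log2 scale). The *Prtn3* length includes the exon shared with *Plppr3*.

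The steps between stages were next set against all genes. A difference is log2(mean CPM + 1) of the later minus the earlier stage, which understates the change of genes near 0, and a gene was counted as past 4-fold at 2 on this scale. Folds beside a difference are on this scale, after 1 CPM is added to each mean, unless they are given by summed counts. From E8.25 to E8.5, stages as labelled and within one flow cell and gate, none of the 5 genes was 4-fold higher, where 0.564% of all genes were. The differences were 1.32 for *Mpo*, 1.79 for *Prtn3*, 1.13 for *Lyz2* and 0.62 for *Ms4a3*. With a pseudocount of 0.1 *Prtn3* (2.81) and *Ms4a3* (2.66) were past the limit. Pooled CPM of total counts was 0.63 and 4.56 for *Prtn3*. By summed counts *Ms4a3* was at least 28.1-fold higher, against a floor of 3 counts over the E8.25 group. Folds given as at least, here and below, set summed counts against such a floor. They treat reads as independent, although reads of 1 cell are not, so they are no lower limit over cells. No p-value belongs to these counts.

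From E8.5 to E9.5, 3 of 5 genes were 4-fold higher, where 3.51% of all genes were. *Prtn3* differed by 4.77 (27.4-fold), and *Mpo* was 18.4-fold higher on the same scale, these being the 27th and 49th largest differences of 15967. *Ms4a3* differed by 2.16, but by 1.22 when the highest cell of each group was left out. *Lyz2* differed by 1.29. *Elane* differed by 1.44 and by summed counts was at least 95.3-fold higher. This is the step across which gate and flow cell also differ. Markers moved with it: all 7 erythroid genes of the list were 4-fold lower at E9.5. Of 7 macrophage genes 4 were 4-fold higher and 1, *Mrc1*, lower. *Adgre1* was among the 4, but differed by 0.56 without the highest cells. Of 5 genes each, 2 megakaryocyte and 2 endothelial genes were 4-fold lower and 1 progenitor gene higher. Their part in the differences was not tested.

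From E9.5 to E10.5, again within one flow cell and gate, *Mpo* was the only one of the 5 genes past 4-fold, with 2.16% of all genes higher and 1.76% lower by that much. It differed by 2.02 (4.07-fold), just past the limit, and by 1.99 with a pseudocount of 10, which ends the call. *Elane* had means of 1.71 and 6.66 CPM, which is 2.82-fold after 1 CPM is added to each. *Lyz2* differed by 1.38, *Ms4a3* by 0.65 and *Prtn3* by 0.20. Without the highest cell of each group *Ms4a3* differed by 1.51, since 1 cell held 62.6% of its E9.5 sum. The median of the 5 was 1.38, against 0.03 over all genes. Macrophage genes moved here as well, with 5 of 7 listed genes 4-fold higher. When the HPC with 2 or more of *C1qa*, *C1qb*, *C1qc*, *Adgre1* and *Mrc1* were left out, *Elane* also passed, at 2.09.

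Across the whole span from E8.5 to E10.5, all 5 genes were 4-fold higher, where 3.40% of all genes were higher and 2.56% lower by that much. *Mpo* differed by 6.23 (74.9-fold), the 6th largest difference of all genes, and *Prtn3* by 4.97 (31.4-fold, 38th). *Elane* differed by 2.94 and was at least 356-fold higher by summed counts. *Ms4a3* differed by 2.80 and *Lyz2* by 2.67. With a pseudocount of 10, *Elane* and *Ms4a3* were no longer past 4-fold. Without the HPC holding macrophage genes, *Lyz2* differed by 1.98.

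The E10.5 Mac, sequenced on the same flow cell as the E10.5 HPC, were compared next. *Lyz2* was in all 25 Mac (86.3 to 100%), from 0.14 through a median of 113.7 to 1054 CPM (mean 304). *Mpo* was in 8 of 25 (32.0%, 15.0 to 53.5%), from 0 to 198 CPM (median 0, mean 11.1). *Prtn3* was in 4 of 25 (16.0%, 4.54 to 36.1%), from 0 to 42.1 CPM (mean 2.92). *Elane* had 1 count in 1 Mac. No Mac held *Ms4a3*, which allows up to 12.0%. Median depth was 3422342 counts in Mac against 1609583 in E10.5 HPC. Thinned to 840000 counts, 16.0% of Mac and 98.6% of E10.5 HPC held *Mpo*.

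In E10.5 HPC 4 of 5 genes were 4-fold higher than in Mac, where 8.35% of all genes were higher and 6.65% lower by that much. *Mpo* differed by 6.64 (99.4-fold), the 3rd largest of all genes, and *Prtn3* by 5.41 (42.4-fold, 16th); without the highest cell of each group they differed by 8.01 and 6.11. *Ms4a3* differed by 3.42 and was at least 292-fold higher by summed counts. *Elane* differed by 2.91, with a ratio of summed counts of 643 (95% counting interval 115.5 to 25409). That interval covers only the 1 count in Mac, not the spread between cells, and 1 HPC held 37.6% of the summed CPM. *Lyz2* went the other way by -0.71, short of 4-fold. The calls of *Elane* and *Ms4a3* ended with a pseudocount of 10 (0.73 and 0.98) and with means of logs (0.86 and 1.46). The median of the 5 was 3.42, against 0.23 over all genes.

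One Mac held 71.2% of the summed *Mpo* of that group. This cell, picked out after its values were seen, had 198 CPM of *Mpo* and 26.2 of *Prtn3*. It had 216 CPM of *Kit*, a stem cell factor receptor of progenitors, where the Mac median was 0 and 1 other Mac was higher, at 1877 CPM. Its *Cx3cr1* (9.53 CPM) and *C1qb* (0.73 CPM) were the lowest of the 25, and its *C1qa* and *C1qc* were at 0. It still held 178 CPM of *Csf1r* and 70.7 of *Mrc1*, where the Mac medians were 621 and 2650. Its *Gp9*, a gene of the megakaryocyte list, was the highest of the 25, at 51.8 CPM. Without this cell the Mac mean of *Mpo* was 3.33 CPM, and the same genes remained 4-fold higher in HPC. The Mac next in *Mpo* had 43.3 CPM, no *Kit* and 2578 CPM of *C1qb*. The 8 Mac with *Mpo* and the 17 without all held *Csf1r*, *C1qb*, *Cx3cr1*, *Adgre1* and *Mrc1*, whereas *C1qa* was in 6 of 8 and 17 of 17 and *C1qc* in 7 of 8 and 16 of 17. Median *C1qb* was 221 and 1191 CPM and median *Cx3cr1* 539.7 and 1010.3 CPM. Medians of *C1qa*, *C1qc*, *Adgre1* and *Mrc1* were also lower in the Mac with *Mpo*, but that of *Csf1r* was not (627 and 621 CPM).

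Megakaryocytes shared *Lyz2* but hardly *Mpo*. In E10.5 Mk, *Lyz2* was in 55 of 73 cells (75.3%, 63.9 to 84.7%), from 0 to 417 CPM (median 39.2, mean 69.6). *Prtn3* was in 18 (24.7%, 15.3 to 36.1%), *Ms4a3* in 7 (9.59%, 3.94 to 18.8%), *Mpo* in 4 (5.48%, 1.51 to 13.4%) and *Elane* in none. Single cells carried these means: 1 Mk had 62.5% of the summed *Prtn3* (540.0 CPM) and 1 had 76.8% of the summed *Ms4a3* (219 CPM). At E8.5, *Lyz2* was in 5 of 37 Mk, *Prtn3* in 3 and the other genes in none. The summed level of the 5 megakaryocyte genes ran from 521 to 20723 CPM in E10.5 Mk (median 5331) and from 0 to 264 CPM in E10.5 HPC (median 36.5). Of the 7 macrophage genes, *C1qa*, *C1qb*, *C1qc* and *Adgre1* were at 0 in E10.5 Mk and the summed level reached 59.8 CPM.

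Against E10.5 Mk, 3 of 5 genes were 4-fold higher in HPC, where 5.67% of all genes were. *Mpo* differed by 9.17 (576-fold), the largest difference of all genes. *Prtn3* differed by 3.69 and *Elane* by 2.94, at least 362-fold by summed counts. *Lyz2* (1.40) and *Ms4a3* (1.13) fell short. Without the highest cell of each group, *Prtn3* differed by 4.84 and *Ms4a3* by 2.26, the latter then past 4-fold. Against E10.5 Endo, 5 of 5 were past 4-fold, where 8.05% of all genes were. There *Mpo* again had the largest difference of all genes (10.21), *Lyz2* was at least 11281-fold and *Prtn3* at least 8952-fold higher by summed counts. Each of these 2 genes was in 0 of 61 Endo, which allows up to 4.92% of cells. The 3 E10.5 EryP allow little: 5 of 5 genes were past 4-fold, but so were 36.6% of all genes, and 2 of the 3 cells held 1 count of *Lyz2* each. All 25 Mac of that lane held 1 count or more of *Hbb-y*, an embryonic globin. Transfer between cells of the lane was not tested.

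Before the HPC stages the genes were rare. In the mesoderm, *Mpo* was in 4 cells at E7.25 (2.72%) and 12 of 140 at E7.75 (8.57%, 4.51 to 14.5%), with a highest cell of 140.6 CPM. The 2 lanes gave 9.43% and 8.05% at E7.75. *Prtn3* was in 4 and 1 cells, *Lyz2* in 0 and 4, and *Elane* and *Ms4a3* in none. The interval of the E7.75 share overlapped that of E8.5 Endo (1.40 to 12.5%), which came from the other flow cell. Of the cells with *Mpo*, 9 of 12 at E7.75 and 2 of 4 Endo had 10 counts or more. Pooled CPM of total counts was 3.46 (counting interval 3.25 to 3.68) at E7.75 and 0.25 (0.18 to 0.34) in Endo, but 1 cell held 47.0% and 62.2% of these counts, and without it the values were 1.86 and 0.095.

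More of the 5 genes were found per cell at the later HPC stages. Of 73 E8.25 HPC, 42 held none of the 5, 25 held 1 and 6 held 2. Of 89 E8.5 HPC, 18 held none, 36 held 1, 22 held 2, 10 held 3 and 3 held 4. At E9.5 the most common number was 3 (27 of 46 cells), and 1 cell held all 5. No E10.5 HPC held fewer than 2: 5 held 2, 40 held 3, 32 held 4 and 10 held all 5 (11.5%, 5.65 to 20.1%). Of the Mac, 13 held 1, 11 held 2 and 1 held 3. Averaged over the 5 genes, the genes were in 10.1% of E8.25 HPC, 27.4% of E8.5 HPC, 62.2% of E9.5 HPC and 70.8% of E10.5 HPC, against 30.4% of Mac and 23.0% of E10.5 Mk.

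**Figure D3:**
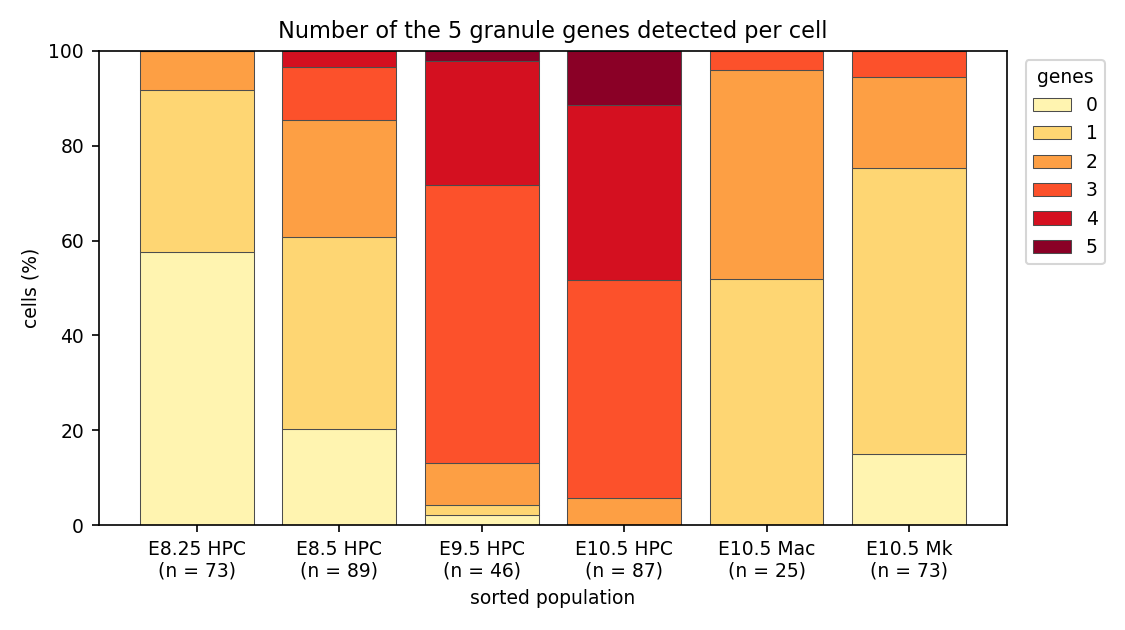
Number of the 5 granule genes detected per cell, as the percent of cells (vertical axis) in HPC of 4 stages, E10.5 Mac and E10.5 Mk; shades run from 0 to 5 genes. Cells with none make up 42 of 73 E8.25 HPC and 0 of 87 E10.5 HPC.

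All 19 E10.5 HPC with *Elane* also held *Mpo*, *Prtn3* and *Lyz2*, and 10 of them held *Ms4a3*. Since all E10.5 HPC held *Mpo* and nearly all held *Prtn3* and *Lyz2*, the overlap with these 3 genes is mostly given by the shares. *Ms4a3* was in 35 of all 87. All 6 E9.5 HPC with *Elane* held *Mpo* and *Prtn3* and 5 held *Lyz2*. Of the 13 with *Ms4a3*, all held *Mpo*, 12 held *Prtn3* and 10 held *Lyz2*. These numbers too lie near the shares of all E9.5 HPC. E8.5 is more informative, because neither gene was general there: 16 HPC held both *Mpo* and *Prtn3*, 22 held *Mpo* alone, 9 *Prtn3* alone and 42 neither. *Prtn3* was thus in 16 of 38 cells with *Mpo* and 9 of 51 without.

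Other genes of the E8.5 HPC differed between those 38 and 51 cells, whose median depths were 1501012 and 1581573 counts. *Csf1r*, the macrophage growth factor receptor, was in 23 of 38 and 12 of 51. *Spi1*, which encodes PU.1, was in 29 of 38 and 26 of 51. Of the same lists, *Cebpb* was in 19 of 38 and 18 of 51, *Cebpa* in 3 and 0, *Irf8* in 3 and 2 and *Cx3cr1* in 2 and 1. *Mrc1*, a macrophage lectin receptor, was in 29 of 38 and 44 of 51, *Cebpd* in 12 and 16 and *Gfi1* in 1 and 8, while *C1qa* and *Adgre1* were in none and *C1qb* and *C1qc* in 1 and 2 each. The 7 erythroid and 5 megakaryocyte genes of the lists were each in a lower share of the cells with *Mpo*, by unequal amounts. *Gata1*, the erythroid and megakaryocytic transcription factor, was in 26 of 38 and 43 of 51, with medians of 2.26 and 188 CPM, and *Gp9*, a platelet receptor subunit, in 12 and 27, but *Itga2b*, which encodes CD41, was in 36 and 50 and *Pf4* in 28 and 41. In mean level *Hbb-y* (308 and 92.4 CPM) and *Klf1* (11.9 and 6.17 CPM) were higher in the cells with *Mpo*. *Kit* was in 37 of 38 and 47 of 51, and *Lyz2* in 26 of 38 and 27 of 51. These are counts of cells from a single lane and carry no test.

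Within E10.5 HPC, *Mpo* and *Prtn3* varied together. Across the 87 cells, Pearson's r of log2(CPM + 1) was 0.80 for that pair. It was 0.51 for *Prtn3* and *Elane*, 0.45 for *Mpo* and *Elane* and 0.41 for *Mpo* and *Ms4a3*. It was 0.28 for *Prtn3* and *Ms4a3* and 0.19 for *Elane* and *Ms4a3*. *Lyz2* had 0.17 to *Mpo*, 0.18 to *Prtn3*, 0.30 to *Elane* and 0.05 to *Ms4a3*. The cells share a lane, and r between each gene and log2 total count was -0.11 to 0.21. The mean over the 10 pairs was 0.33. At E9.5 (46 cells) it was 0.19, with 0.48 for *Mpo* and *Prtn3* and 0.39 for *Prtn3* and *Lyz2*. Correlations are given as descriptions, and weak ones in sparse genes such as *Elane* and *Ms4a3* carry no weight.

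**Figure D4:**
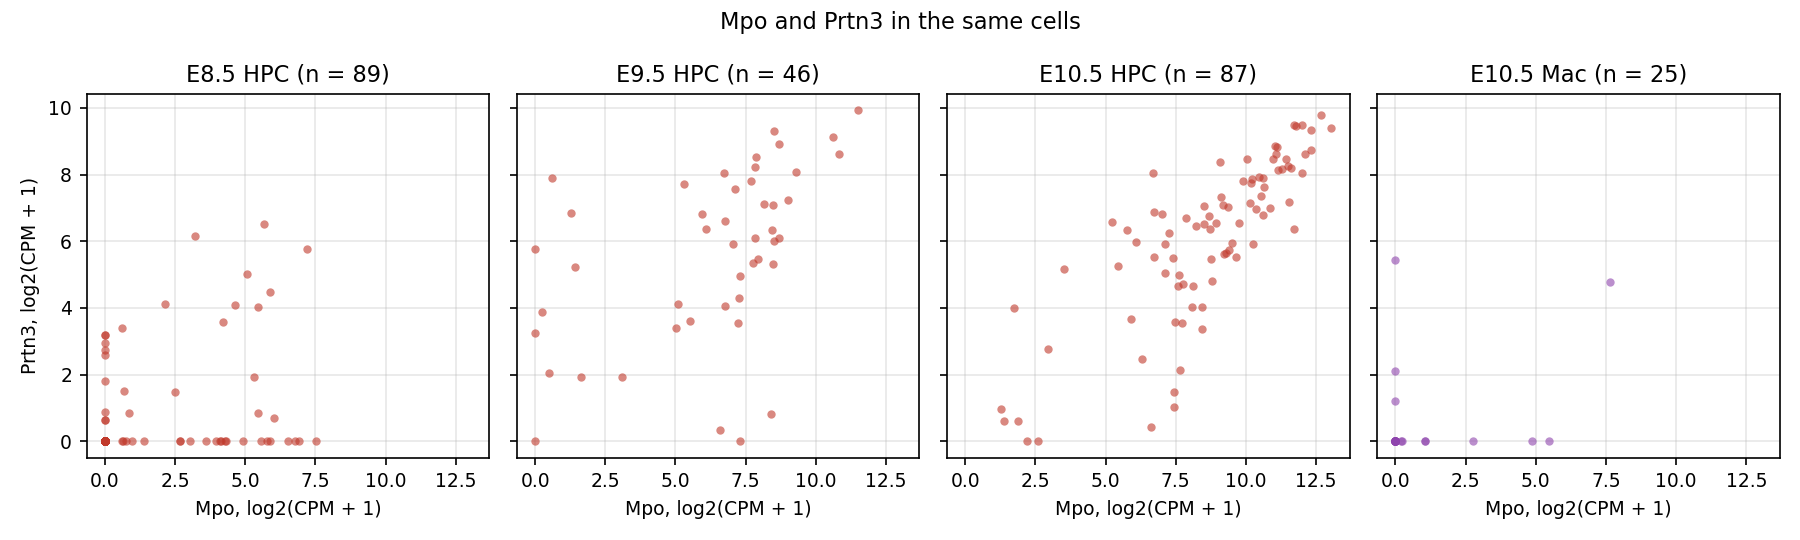
*Mpo* (horizontal axis) against *Prtn3* (vertical axis) in the same cells, both as log2(CPM + 1), for HPC of E8.5, E9.5 and E10.5 and for E10.5 Mac; each point is a cell. At E8.5, 16 of 89 cells lie off both axes, and at E10.5 the 87 cells form a band with r of 0.80.

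Genes that act with granule proteins were described from lists. Of the 4 genes for processing, packing and inhibiting the proteases, 3 were 4-fold higher in E10.5 than in E8.5 HPC. *Serpinb1a*, which encodes an inhibitor of these proteases, differed by 7.11 and went from 2 of 89 to 81 of 87 cells. *Srgn*, the proteoglycan core on which granule proteins are packed, differed by 4.50 (21 of 89 to 87 of 87 cells), and *Ctsc*, the peptidase that removes their activation peptide, by 2.85. Their E9.5 HPC counts were 36, 43 and 45 of 46 cells. Against Mac, *Serpinb1a* alone of the 4 was 4-fold higher, by 2.91.

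The phagocyte oxidase, which supplies the peroxide that myeloperoxidase uses, had 3 of 5 genes 4-fold higher at E10.5 than at E8.5. *Cybb*, its catalytic subunit, was in 0 of 89 E8.5 HPC, 31 of 46 E9.5 HPC and 42 of 87 E10.5 HPC, and was at least 7005-fold higher at E10.5 by summed counts. *Ncf4* differed by 4.70 and *Ncf1* by 2.98. None of the 5 was 4-fold different between E10.5 HPC and Mac.

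Genes of the later granules were nearly absent. Of 10 listed secondary and tertiary granule genes, 4 were in the filtered table, and none of them was 4-fold different between E8.5 and E10.5 HPC. *S100a8* and *S100a9*, abundant in mature neutrophils, had no count in any HPC, against 9 and 5 of 25 Mac with means of 0.24 and 0.10 CPM. *Mmp8* was in 2 of 87 E10.5 HPC. *Mmp9* was in 4 of 46 E9.5 HPC and 0 of 87 E10.5 HPC, at least 589-fold lower at E10.5 by summed counts of those 4 cells. By cells, 0 of 87 allows a share of up to 3.45%. *Mmp9* was also 4-fold lower in E10.5 HPC than in Mac (-2.36, or -1.46 without the highest cells). Of the other primary granule genes, *Gusb* and *Cd63* were in the table. Neither was 4-fold different between E8.5 and E10.5 HPC or between E10.5 HPC and Mac. These 2 also serve lysosomes in general.

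Of the 6 transcription factors of the granulocyte-monocyte list in the table, 3 were 4-fold higher in E10.5 than in E8.5 HPC. *Irf8*, which favours monocytes, differed by 4.04 (5 of 89 to 46 of 87 cells), and *Cebpa* by 2.03 (3 of 89 to 27 of 87). *Gfi1*, a repressor of monocyte genes, differed by 2.33, but was in 9 cells at each stage and its highest E10.5 cell had 702 CPM. That cell held 80.8% of the E10.5 sum. *Gfi1* also differed by 3.45 from E9.5 (1 of 46 to 9 of 87 cells) and by 3.46 from Mac (0 of 25). Without the highest cell of each group its differences from E8.5, E9.5 and Mac were 0.92, 1.56 and 1.56, so that none was past 4-fold. Against Mac, *Irf8* (-4.17), *Cebpa* (-3.67) and *Cebpb* (-3.04) were lower in HPC, the last by -1.89 without the highest cells. Of 4 growth factor receptor genes, *Csf1r* alone was past 4-fold, by 2.59 over E8.5 and -2.92 against Mac. Both granule genes of the eosinophil, basophil and mast cell list in the table were past 4-fold from E8.5 to E10.5 and against Mac. *Cpa3*, the mast cell carboxypeptidase, was in 0 of 89 E8.5 HPC, 54 of 87 E10.5 HPC and 0 of 25 Mac. *Hdc*, which makes histamine, was in 3, 59 and 7 cells of these groups and differed by 4.29 from E8.5, by 3.63 from E9.5 and by 4.78 from Mac.

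Lineage lists show what else the gates held. None of 5 progenitor genes was 4-fold different between E8.5 and E10.5 HPC, and against Mac *Gata2* (4.38) and *Cd34* (2.23) were higher. Of 7 erythroid genes, 5 were 4-fold lower at E10.5 than at E8.5, led by *Hba-x* (-8.13) and *Hbb-y* (-6.27). Against Mac, *Gata1* (6.87), *Klf1* (2.54) and *Epor* (2.17) were higher, with 2, 0 and 1 Mac holding them, and *Hba-x* (-3.14) and *Hbb-y* (-2.97) were lower. The ratios of summed counts were 5509 (1525 to 45487) for *Gata1* and 160 (44.2 to 1318) for *Epor*, and *Klf1* had 797 counts in HPC and 0 in Mac. These intervals cover only the few counts in Mac, not the spread between cells. No megakaryocyte gene was 4-fold different between E8.5 and E10.5. Against Mac, *Itga2b* (4.50) and *Gp9* (2.12) were higher and *Pf4* (-2.28, or -1.84 without the highest cells) lower. Of the endothelial genes, *Kdr* (-3.42) and *Cdh5* (-3.16) were 4-fold lower at E10.5 than at E8.5, whose gate required CDH5. Against Mac, 4 of the 5 were higher (3 without the highest cells), led by *Kdr* (3.32), *Tek* (2.57) and *Cdh5* (2.29).

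Macrophage genes need separate account, because *Lyz2* is also a macrophage gene and CD45+ gates can hold macrophages. Of the 7, 6 were 4-fold higher in E10.5 than in E8.5 HPC, led by *Cx3cr1* (6.21), *C1qb* (5.82) and *Adgre1* (5.47). From E9.5 to E10.5 it was 5 of 7, led by *Mrc1* (4.58), *Adgre1* (3.20) and *C1qb* (2.76). All 7 were 4-fold lower in E10.5 HPC than in Mac, led by *Mrc1* (-3.72), *C1qa* (-3.48) and *C1qb* (-3.48). The summed level of the list ran from 0 to 10694 CPM in E10.5 HPC (median 13.8), from 0.27 to 1490.3 in E9.5 HPC (median 68.3) and from 259 to 23965 in Mac (median 6256). In E9.5 HPC, *C1qa* was at 0. At least 2 of *C1qa*, *C1qb*, *C1qc*, *Adgre1* and *Mrc1* were in 40 of 87 E10.5 HPC, 7 of 46 at E9.5 and all 25 Mac.

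The granule genes were present on both sides of that division. Among the 47 E10.5 HPC with fewer than 2 macrophage genes, *Mpo* was in 47 (median 678, mean 1306 CPM), and among the 40 others it was in 40 (median 354, mean 1079.8 CPM). *Prtn3* had means of 175 and 152.8 CPM, *Elane* was in 9 of 47 and 10 of 40, and *Ms4a3* in 19 of 47 and 16 of 40. *Lyz2* had means of 113.8 and 269.7 CPM and medians of 67.0 and 101.9 CPM. Median depths were 1433534 and 1807498.5 counts. Without the 40 cells, the difference from Mac in *Lyz2* went from -0.71 to -1.41.

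Correlations with list genes were also taken across the 87 E10.5 HPC. *Mpo* had r of 0.50 with *Kit*, 0.49 with *Myb*, 0.44 with *Gata2* and 0.42 with *Cd34*, all progenitor genes. It had 0.52 with *Hdc*, 0.46 with *Serpinb1a* and 0.41 with *Srgn*, but -0.11 with *Ctsc* and -0.04 with *Serpinb6a*, of the same list as *Serpinb1a* and *Srgn*. With the 7 macrophage genes it had -0.38 to -0.11. *Prtn3* had 0.54 with *Serpinb1a*, 0.49 with *Cd34*, 0.44 with *Runx1* and 0.43 with *Csf3r*, the G-CSF receptor. *Lyz2* had 0.53 with *Csf1r*, 0.50 with *Ctsc*, 0.44 with *Irf8* and *Ncf1*, 0.42 with *Cybb* and 0.41 with *Adgre1*, and with the progenitor genes it had -0.21 (*Myb*), -0.18 (*Kit*), -0.10 (*Gata2*), 0.24 (*Cd34*) and 0.38 (*Runx1*). *Ms4a3* had its highest value, 0.44, with *Hdc*. *Elane* had 0.38 with *Cebpa*. The values are descriptions over cells of 1 lane.

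**Figure D5:**
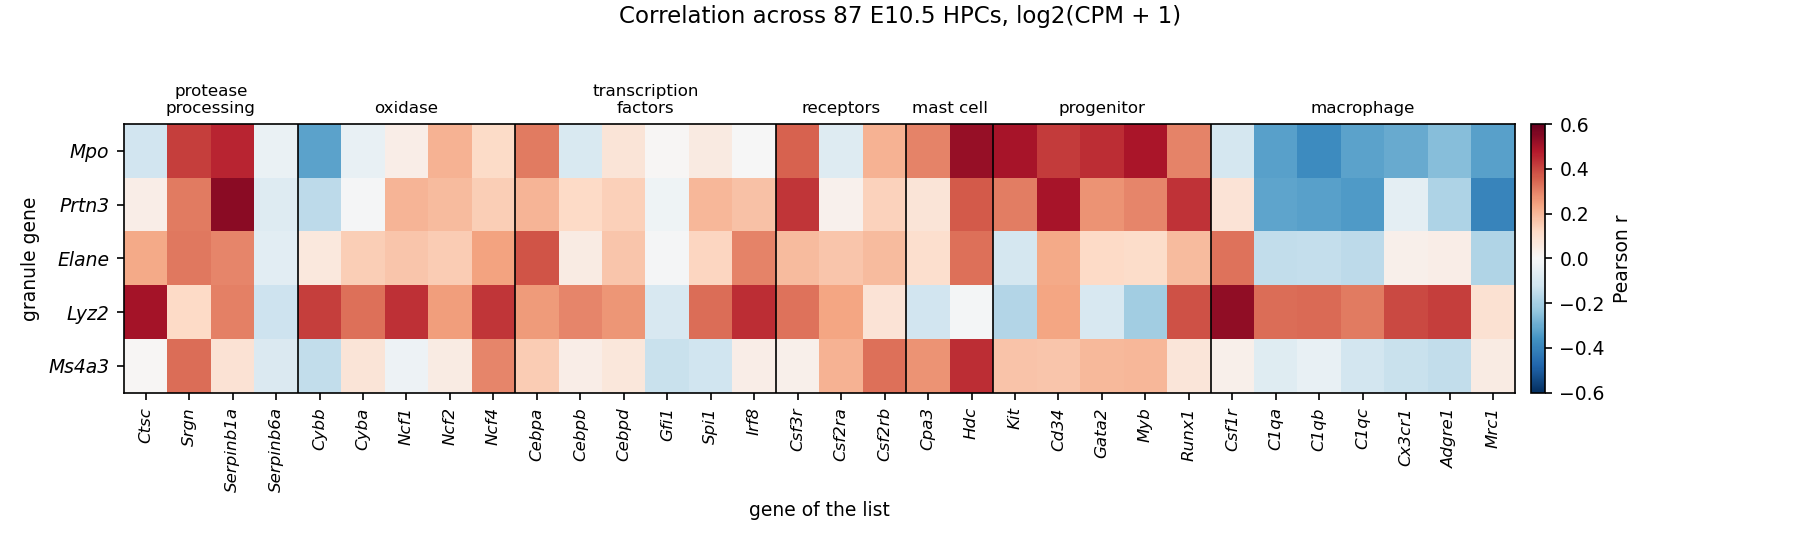
Pearson's r of log2(CPM + 1) across 87 E10.5 HPC between each granule gene (rows) and genes of the lists named above the columns; red is positive and blue negative, on a scale of -0.6 to 0.6. *Mpo* runs from 0.52 with *Hdc* to -0.38 with *C1qb*, and *Lyz2* is positive with all 7 macrophage genes, up to 0.53 with *Csf1r*.

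The genes most like the group were ranked by r with the mean log2(CPM + 1) of the 5, over 13152 genes found in at least 10% of the 87 E10.5 HPC. Among the first 10 were *Hp* (0.64), *H2afy* (0.62), *Tfec* (0.62), *BC035044* (0.56), *Parp8* (0.55), *Gria3* (0.54), *Cldn15* (0.54), *Nrg1* (0.54) and *Anxa1* (0.53). *Hp* encodes haptoglobin, which binds free haemoglobin, and was in 1 of 89 E8.5 HPC, 30 of 46 E9.5 HPC and 49 of 87 E10.5 HPC, against 3 of 25 Mac. *Anxa1* encodes annexin A1, a regulator of inflammation, and was in 46 of 87 E10.5 HPC. In the 46 E9.5 HPC the values were 0.48 for *Hp*, 0.48 for *Tfec* and 0.60 for *BC035044*, but 0.00 for *H2afy*, -0.11 for *Anxa1* and -0.17 for *Nrg1*. None of the 10 was among the first 10 at E9.5.

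Gene by gene, the 2 most like *Mpo* were *Fut8* (0.68) and *Adgrg3* (0.64), where the 99th percentile over the 13152 genes was 0.41. For *Prtn3* they were *H2afy* (0.62) and *Rgs18* (0.54), for *Elane* *Gm42997* (0.62) and *Hp* (0.60), and for *Ms4a3* *Gpr160* (0.51) and *Kcne3* (0.49). *Gm42997* was in 11 of 87 cells only. For *Lyz2* they were *Cd52* (0.60) and *Tyrobp* (0.58), the latter encoding a signalling adaptor of myeloid cells. At E9.5 *Adgrg3* kept an r of 0.55 with *Mpo* and *Tyrobp* 0.42 with *Lyz2*, while *Fut8* had 0.00 with *Mpo*.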

How the data were processed

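Per the labels and the methods of the study, the authors aligned reads with Subread to GRCm38, counted them with featureCounts, filtered cells and genes, and divided counts by scran size factors. The deposited counts are whole reads per gene, filtered and unfiltered, and the deposited CPM, a normalised signal, sum to 699615 to 4176737 per cell.

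Shares use the filtered counts at 1 count or more, and levels use the deposited CPM. Log2 differences use mean CPM + 1 over all 15967 genes. A share of 0 carries a limit of 3 cells of the total. A fold given as at least uses a floor of 3 summed counts and does not cover the spread between cells. All genes of each list were counted. Those past 4-fold from E9.5 to E10.5, from E8.5 to E10.5 or against Mac were named, at most 3 per list and direction, with the 10 genes of highest r and 2 per granule gene. Genes that the rule names but that are withheld are not reported here. The members and lists were chosen with earlier results of these data known. Of 47643 identifiers, 47224 matched a gene name. Each cell is one GEO sample and the labels name no replicates of a population, so no differential test was run. Doublets were not called. Scripts (Python 3.11.15, numpy 2.4.6, pandas 2.3.3, scipy 1.17.1) were tested on simulated data. Alternatives were detection at 10 counts, thinning, all captured cells, other pseudocounts, other scaling, a 2-fold limit, and leaving out cells.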

Additional observations from a re-analysis of the deposited data

Results flagged for a closer look

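Genes of the lists that the authors' filter had removed were looked up in the unfiltered counts. *Prss57*, another primary granule protease gene, was in 9 of 92 captured E10.5 HPC, *Ltf*, which encodes lactoferrin, in 4 and *Ms4a2*, a subunit of the IgE receptor, in 6, and none of these was in E10.5 Endo. *Cebpe*, a transcription factor of later granulocyte stages, was in 5 captured E10.5 HPC and 2 of 80 E10.5 Endo. *Camp*, a secondary granule gene, was in 5 of 79 captured E8.25 HPC, with at most 3 counts in a cell, and in 1 of 79 E8.5 Endo, 2 of 53 E8.5 Mk (3.77%), 2 of 92 E10.5 HPC and 2.00% of captured E7.75 mesoderm cells.

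The HPC that the authors left out also held granule genes. Of 12 such E9.5 HPC (median 348486 counts), 12 held *Mpo*, 11 held *Prtn3*, 7 held *Lyz2* and 4 held *Ms4a3*. Of 5 such E10.5 HPC (median 434882 counts), 5 held *Mpo*, 5 held *Prtn3* and 4 held *Lyz2*. *Ctsg* had no count in them.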

How the results depend on the processing

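None of the alternatives reversed the direction of a log2 difference of the 5 genes. At 10 counts or more, the mean share over the 5 genes was 18.9% in E8.5, 48.3% in E9.5 and 62.8% in E10.5 HPC. With a 2-fold limit the numbers past it were 3 (E8.25 to E8.5), 5 (E8.5 to E9.5), 3 (E9.5 to E10.5) and 5 (E10.5 HPC over Mk), where 4.99%, 10.6%, 9.13% and 14.4% of all genes were. When genes had to average at least 10 CPM in a group, which leaves out *Elane* and *Ms4a3*, they were 3 (E8.5 to E10.5), 2 (over Mac), 3 (over Endo) and 3 (over EryP), where 3.84%, 8.12%, 8.52% and 44.3% of the genes kept were. Without the HPC holding 2 or more macrophage genes, an alternative whose counts were added after seeing the data, *Elane* joined *Mpo* past 4-fold from E9.5 to E10.5. The share of all genes past 4-fold is not given for this alternative, so no count of genes is read from it. In E9.5 HPC the mean r of pairs was 0.19, and 0 of the 10 genes most like the group stayed; the cause was not tested. Of the values for single genes, 54 moved and 171 did not. *Ms4a3* from E8.5 to E9.5 stayed past 4-fold in 2 of 6 alternatives, and with a pseudocount of 0.1 *Prtn3* and *Ms4a3* passed from E8.25 to E8.5. *Mpo* from E9.5 to E10.5 was 1.99 with a pseudocount of 10. Values without the highest cell of each group, for list genes, against Mk, Endo and EryP and for pooled *Mpo*, were added after seeing the data. The calls of *Elane* and *Ms4a3* over E8.5 and over Mac were lost with a pseudocount of 10 and with means of logs. No paired analysis was possible because the labels number cells, not replicates, and these numbers pair nothing. As to depth, thinning to 840000 counts took the *Mpo* share of Mac from 32.0% to 16.0%, but left those of *Elane* (23.9%) and *Ms4a3* (40.8%) in E10.5 HPC as they were in the same cells.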
